A study of Mus musculus with 6 samples.

Results

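The genes described here encode the proteins of the cytosolic ribosome. Their rows were taken from the table of raw counts by symbol: every symbol that begins with Rps or Rpl followed by a digit, the P stalk genes Rplp0, Rplp1 and Rplp2, and Rpsa, without the S6 kinases (Rps6k) and without symbols marked as pseudogenes (-ps and a digit). This gave 87 of the 24063 genes in the table. Of these, 77 encode ribosomal proteins, 31 of the small and 46 of the large subunit, and are called core members below. The other 10 rows are ribosomal protein-like paralogs and Rps19bp1, a protein that binds Rps19. Ribosomal proteins without such a symbol, such as Fau and Rack1 (listed here as Gnb2l1), lie outside the rule.

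The libraries came from liver tumors of male C57BL/6 mice, 3 that were wild-type (WT, Nr2e3+/+) and 3 that lacked Nr2e3 (Nr2e3-/-), an orphan nuclear receptor. All mice had received diethylnitrosamine (DEN), a carcinogen that alkylates DNA after activation in hepatocytes, at 25 mg per kg and 15 days of age, and the tumors were taken at the 24-week time point. There was no group without DEN or without tumor, the study's methods name bought C57BL/6J mice as WT and a knockout line made earlier, with no word on littermates, and RNA came from bulk tumor tissue, so fewer cells of a type and less RNA per cell cannot be told apart. The question put to the members was whether tumors of the 2 genotypes differed in their ribosomal protein transcripts, and how the members ranked among themselves.

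A ribosome holds a single copy of almost every ribosomal protein, and cells make these proteins together, since an unassembled ribosomal protein is rapidly degraded. Their mRNAs begin with a C followed by a run of pyrimidines, the terminal oligopyrimidine (TOP) tract, through which the kinase mTORC1 and the RNA-binding protein Larp1 control their translation, so that output is set to a large part at translation and not at the level of the mRNA. Ribosomal protein mRNAs have also been copied back into mammalian genomes many times, and these processed pseudogenes keep much of the coding sequence.

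Depth was between 25250090 and 28690279 counts in the WT libraries and between 15376261 (replicate 1) and 28336305 in the Nr2e3-/- libraries. Levels are given as CPM, counts per 1000000 counts after TMM normalization, and n is 3 libraries per group throughout. SE is the standard error of a log2 fold change (Nr2e3-/- over WT), and adjusted p-values are those of edgeR unless another tool is named. The labelled tissue was visible in its defining transcript, since albumin (Alb) stood between 84013 and 130240 CPM in all 6 libraries. Nr2e3 itself had 0 counts in every library, so the genotype could not be read from it. With 3 counts as the limit, this allows at most 0.105 to 0.195 counts per 1000000 total counts, without TMM factors. That limit covers counting error only.

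Start regions of 4 genes and a pair of coding sequences are shown first, because the values below are read beside them. The windows hold 15 bases before and 15 bases from the annotated start of the gene (RefSeq, GRCm38.p6). Capitals mark a C, not preceded by a pyrimidine and lying within 5 bases of the start, with the run of at least 5 pyrimidines that it opens. Rpl27a (chr7:109519180-109519209, plus strand) is the core member with the highest ratio between the genotypes among the well counted members, Rps6 (chr4:86857353-86857382, minus strand) is the target of the S6 kinases, and Rps27 (chr3:90213634-90213663, minus strand) and its paralog Rps27l (chr9:66946071-66946100, plus strand) are the pair of tested gene and tested paralog that differed most in counted level per kilobase.
Rpl27a: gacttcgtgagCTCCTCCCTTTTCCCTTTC
Rps6: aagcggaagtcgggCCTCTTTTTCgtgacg
Rps27: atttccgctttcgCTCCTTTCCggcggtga
Rps27l: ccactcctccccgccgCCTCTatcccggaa

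Of the 77 core members, 57 were matched by symbol in the promoter table, and 14 of them (24.6%) had such a run at the annotated start, against 3379 of 27025 promoters of all genes (12.5%). Annotated starts can lie some bases from the start in use. For members the start nearest that of the transcript used here was taken, and for all genes the first one listed. For Rps10 and Rpl15, both with a run, the start taken lay 769 and 360 bases from that transcript's start. In the 300 bases around the start (250 before and 50 after), either strand, the GC box GGGCGG bound by Sp1 stood in 34 of 57 (59.6%, all promoters 35.9%). The letters CCGGAAG, bound by GABP, stood in 22 (38.6%, all promoters 9.1%), and AAGATGGC, bound by YY1, in 4 (7.0%, all promoters 2.9%). The search for GABP and YY1 letters did not exclude overlaps between motifs, and a match in these letters is a description of the window only.

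The coding sequence of Rps27 (chromosome 3, 90212522 to 90213651, minus strand) is 252 bases long without its stop codon. That of Rps27rt, an intronless copy on chromosome 9 (114982366 to 114982739, minus strand), is identical to it over all 252 bases. Rps27l (chromosome 9, 66946086 to 66949516, plus strand) has the same length and differs at 60 positions, which leaves 76.2% identity. Both are printed so that the spacing of these differences can be seen, with capitals for bases of Rps27l that differ from Rps27 (coding strand, GENCODE M21 transcripts of GRCm38).
Rps27: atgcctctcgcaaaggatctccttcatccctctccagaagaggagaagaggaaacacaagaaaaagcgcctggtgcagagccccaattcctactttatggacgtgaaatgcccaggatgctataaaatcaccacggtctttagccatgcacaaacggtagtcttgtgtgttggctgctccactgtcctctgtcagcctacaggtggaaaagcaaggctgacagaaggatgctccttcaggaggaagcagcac
Rps27l: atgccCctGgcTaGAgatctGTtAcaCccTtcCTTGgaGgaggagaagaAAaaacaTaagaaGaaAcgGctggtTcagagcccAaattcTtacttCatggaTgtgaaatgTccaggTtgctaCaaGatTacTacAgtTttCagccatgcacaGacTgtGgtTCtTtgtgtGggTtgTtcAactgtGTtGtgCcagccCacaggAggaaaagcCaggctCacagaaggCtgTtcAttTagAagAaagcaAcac

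The members took a small share of the counts. In WT tumors they held 0.344%, 0.331% and 0.357% of all counts in replicates 1, 2 and 3 (mean 0.344% ± 0.013, SD), and in Nr2e3-/- tumors 0.335%, 0.383% and 0.376% (mean 0.365% ± 0.026, SD). Nr2e3-/- replicate 1 lay within the WT range and the other two Nr2e3-/- libraries lay above it. The difference of 0.020 percentage points did not pass an exact permutation test (two-sided, p = 0.3, where 3 against 3 cannot give less than 0.1). For scale, a single translation factor, Eef1a1, stood between 1060 and 1221 CPM, while all 87 rows together summed to between 3215 and 4028 CPM.

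Within the core members the level ran over a very wide range, although their products are needed in like amounts. Per kilobase of transcript, the highest was Rpl8 at 312 CPM per kb and the lowest Rps23 at 0.391 CPM per kb, a ratio of 797. Also among the 5 highest core members were Rplp1 (310 CPM per kb), Rpl4 (279) and Rpl13a (195). The lowest tested ones after Rps23 were Rpl28 (0.467 CPM per kb), Rps13 (0.662) and Rps16 (0.702). The 5 most counted genes, among them Rpl4, Rps3, Rpl8 and Rpl13a, held 41.0% of all counts on the 77 core members.

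This ranking went together with how much of a gene's coding sequence is found nowhere else. Each coding sequence was cut into windows of 50 bases, and a window was called unshared when no transcript of another gene held the identical 50 bases. Rps3, at the mRNA entry side of the small subunit, had 91.9% unshared windows and 234 to 306 CPM. Rpl8 had 91.3%, and Rpl4, whose long extension lines the exit tunnel, 79.7%. At the other end, 29 core members had 0% unshared windows, among them Rps27, Rps23, Rps6, Rpl5, Rpl11, Rpl19 and Rpl24.

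Grouped by this share, the 29 core members at 0% had a median level of 1.70 CPM per kb (range 0.391 to 48.3) and held 3.5% of the core counts, although they make up 37.7% of the core members. The 28 members above 0% and up to 20% had a median of 35.9 CPM per kb, the 9 members above 20% and up to 50% a median of 95.3, and the 11 members above 50% a median of 167 CPM per kb and 54.8% of the core counts. Members at 0% shared windows with 4 to 82 other annotated genes (median 14), and the 11 members above 50% with 0 to 9 (median 2). Across the 77 core members Spearman's rho between the unshared share and the level per kilobase was 0.90, and between 0.89 and 0.91 in each of the 6 libraries, which share the same transcript models. It was 0.88 with windows of 36 or of 75 bases, 0.64 when copies with up to 2 mismatches also counted as shared, and 0.52 when whole transcripts replaced coding sequences. Rpl41, whose product is the shortest ribosomal protein, stood highest among the members at 0%, with 48.3 CPM per kb. Its 0% rests on 26 windows, as only 75 of the 437 bases of its transcript are coding. How reads that match several places were treated is not given in the sources used here, and its part in the levels was not tested.

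**Figure D1:**
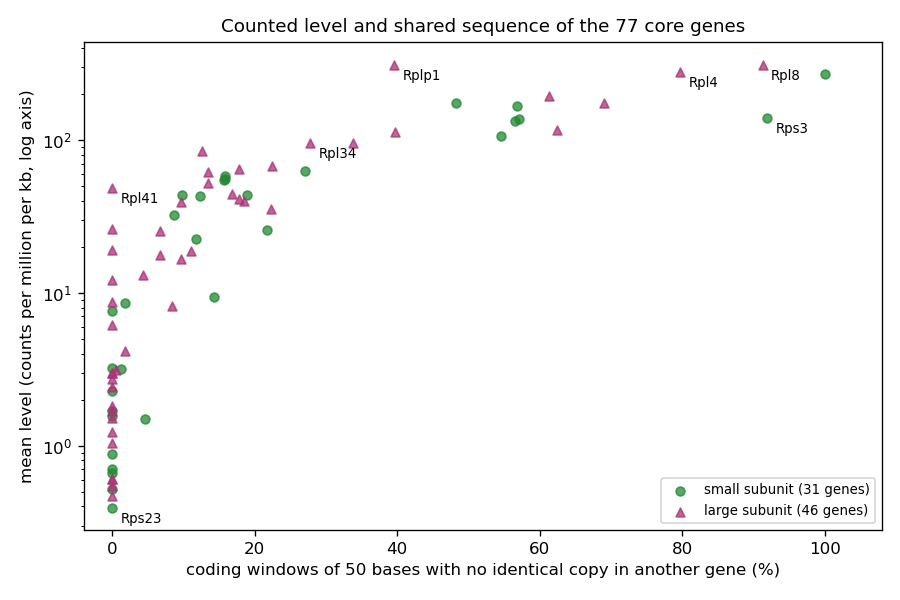
Mean level over the 6 libraries (CPM per kb of transcript, log axis) against the percentage of 50-base coding windows with no identical copy in a transcript of another gene, for the 31 small subunit (circles) and 46 large subunit (triangles) core members. The 29 genes at 0% lie between 0.391 and 48.3, while the 11 genes above 50% all lie at 106 or higher.

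Rpl34 and a near-identical copy of it were both counted, which is shown here as a case chosen after its values were seen. Its pseudogene Rpl34-ps1, a row outside the rule, had 44.6, 39.6 and 42.6 CPM in WT and 44.2, 49.8 and 51.1 CPM in Nr2e3-/- tumors. Rpl34 itself had 45.2, 40.1 and 43.1 CPM in WT and 45.2, 50.5 and 51.3 CPM in Nr2e3-/- tumors, so the rows followed each other in every library. Their coding sequences differ at 2 of 351 positions (99.4% identity), T132C and C318G, counted from the first coding base with the Rpl34 base first. Bases 125 to 324 hold both differences, in capitals.
Rpl34: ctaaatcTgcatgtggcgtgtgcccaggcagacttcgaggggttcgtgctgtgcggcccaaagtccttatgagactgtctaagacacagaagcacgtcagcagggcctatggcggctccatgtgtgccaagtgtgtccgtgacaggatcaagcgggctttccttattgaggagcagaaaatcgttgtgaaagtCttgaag
Rpl34-ps1: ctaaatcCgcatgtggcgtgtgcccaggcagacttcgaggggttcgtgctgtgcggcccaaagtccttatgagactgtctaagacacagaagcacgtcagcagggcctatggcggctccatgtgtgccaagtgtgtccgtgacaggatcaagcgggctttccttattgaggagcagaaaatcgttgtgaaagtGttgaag
How reads were divided between these rows was not tested. The table held 6 other pseudogene rows of this kind, of which Rpl14-ps1 had 5.91 to 7.61 CPM and the rest at most 1.34 CPM.

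Between the genotypes no member passed the test. The quasi-likelihood F test of edgeR, two-sided, was fitted to the 13572 genes that passed the filter on low counts, which 79 of the 87 members did, 73 of them core members. At a Benjamini-Hochberg adjusted p under 0.05 it called 0 members higher and 0 lower, where 0.0663% and 0.0295% of all genes tested were called. At an unadjusted p under 0.05, 12 of 79 members (15.2%) were higher in Nr2e3-/- tumors, against 11.8% of all genes, and 0 were lower, against 9.72%. For 24 members (30.4%) all 3 Nr2e3-/- libraries lay above all 3 WT libraries, against 13.9% of all genes, and for 0 members they lay below, against 12.9%. The median log2 fold change (Nr2e3-/- over WT) was 0.17 over the members and 0.01 over all genes tested, and 67 members had a positive and 12 a negative value.

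The shift was mostly upward but small, and the number of members called depended on the tool and on which libraries entered. DESeq2 called 1 member higher at an adjusted p under 0.05 (Rpl27a), where 3.59% of the genes it tested were called higher. Limma-voom with sample quality weights called 5 (among them Rpl27a, Rpl4, Rpl13 and Rpl7l1), where 9.48% of the genes were called higher. Without Nr2e3-/- replicate 1, edgeR called 8 of 80 members higher (among them Rpl27a, Rpl4, Rps4x, Rpl13, Rpl6, Rpl7l1 and Rpl14), where 12.2% of the genes were called higher. The share of members called was thus close to or below that of all genes in each of these fits. None of them called a member lower. Leaving out any other single library gave 2 to 6 members higher at an unadjusted p under 0.05 in place of 12. These were 2.5% to 7.5% of the members tested, against 6.7% to 9.5% of all genes in the same fits. With library totals in place of TMM factors, 3 members (3.8%, all genes 7.0%) were higher at an unadjusted p under 0.05. Groups lay apart upward in 7 members (8.9%, all genes 7.5%). The median log2 fold change was then 0.06 over the members and -0.10 over all genes. After a correction for length and GC content, groups lay apart upward in 14 members (17.7%), below the 19.2% of all genes. At an unadjusted p under 0.05, 8 members (10.1%, all genes 14.1%) were higher after that correction. The corrected median log2 fold change was 0.16 over the members and 0.04 over all genes.

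The 6 libraries did not fall into 2 even groups. For the 62 tested members with at least 50 counts on average, the median log2 ratio to the WT mean was 0.02 in Nr2e3-/- replicate 1, 0.26 in replicate 2 and 0.22 in replicate 3, and it lay between -0.04 and 0.03 in the WT libraries. For all genes with that many counts these medians lay between 0.00 and 0.02 in every library. Nr2e3-/- replicate 2 was above every WT library for 56 of the 62 members (90.3%, all genes 41.6%) and replicate 3 for 54 (87.1%, all genes 41.9%). Nr2e3-/- replicate 1 was above every WT library for 24 members (38.7%, all genes 34.9%) and below every WT library for 13 (all genes 31.3%). The upward shift was thus measured in 2 of the 3 Nr2e3-/- libraries.

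**Figure D2:**
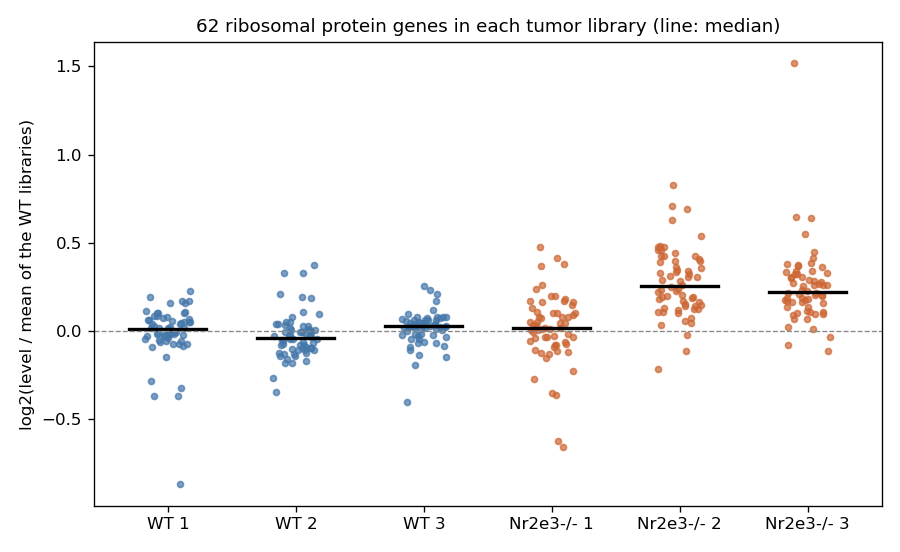
Log2 ratio of the level to the mean of the WT libraries for 62 ribosomal protein genes (points) in each of the 6 tumor libraries, with the median as a line. The medians of Nr2e3-/- replicates 2 and 3 stand at 0.26 and 0.22, and that of replicate 1 at 0.02, beside the WT libraries.

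Some of the marker transcripts of other cell types also differed between Nr2e3-/- replicate 1 and the other Nr2e3-/- libraries. Summed levels of 8 stromal markers, all detected, were 351 to 434 CPM in WT tumors, 393 CPM in Nr2e3-/- replicate 1, and 243 and 216 CPM in replicates 2 and 3. The 4 neutrophil markers in the table, all detected, summed to 3.33 to 5.48 CPM in WT tumors, to 3.05 CPM in Nr2e3-/- replicate 1, and to 25.4 and 15.1 CPM in replicates 2 and 3. The 6 biliary markers, all detected, summed to 57.3 to 119 CPM in WT tumors and to 69.1, 429 and 185 CPM in Nr2e3-/- tumors, most of it osteopontin (Spp1), at 46.05 to 106.8 CPM in WT and 56.3, 410.2 and 171 CPM in Nr2e3-/- tumors. Epcam had 1.80 to 2.37 CPM in WT and 1.79, 10.95 and 5.79 CPM in Nr2e3-/- tumors, whereas Sox9 (7.94, 6.09 and 5.79 CPM in Nr2e3-/- replicates 1, 2 and 3), Krt7 (1.06, 0.520 and 0.703 CPM) and Krt19 (1.79, 0.668 and 1.73 CPM) were no higher in replicates 2 and 3 than in replicate 1. The 6 macrophage markers, all detected, summed to 279.7 to 357 CPM in WT tumors and to 243, 625 and 319 CPM in Nr2e3-/- tumors. The 8 lymphocyte markers summed to at most 9.30 CPM in any library. The 5 red cell markers summed to 129 to 180 CPM in WT tumors and to 223, 288 and 208 CPM in Nr2e3-/- tumors, with Slc4a1 at 0 in replicate 1. The 6 endothelial markers summed to 314 to 329 CPM in WT and 277 to 335 CPM in Nr2e3-/- tumors, and the 6 proliferation markers to 26.5 to 36.9 CPM and 23.6 to 47.7 CPM. The 8 hepatocyte markers summed to 122880 to 151390 CPM in WT and 109210 to 130250 CPM in Nr2e3-/- tumors. No gene of these marker lists passed the adjusted threshold in edgeR. At an unadjusted p under 0.05, 2 hepatocyte, 2 neutrophil, 2 biliary, 1 endothelial and 1 red cell marker were higher (11.8% of all genes). At that threshold 3 lymphocyte and 1 endothelial marker were lower (9.72% of all genes). DESeq2 called S100a8, S100a9, Retnlg, Epcam, Tat and Lyve1 higher (3.59% of all genes) and Kdr lower (2.24%) at its adjusted threshold. Limma-voom called 2 hepatocyte, 2 neutrophil, 1 biliary and 1 endothelial marker higher at its adjusted threshold (9.48% of all genes). It called 4 of 8 stromal (Col1a2, Col3a1, Dcn and Reln), 1 lymphocyte and 1 endothelial marker lower (7.91% of all genes). Nr2e3-/- replicate 1 also had the lowest depth. The part of these markers and of depth in the members' levels was not tested.

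Among the 30 tested small subunit members the median log2 fold change was 0.13, with 25 positive and 5 negative values. At an unadjusted p under 0.05, 2 were higher (6.7% of those tested, against 11.8% of all genes), and the groups did not overlap upward in 4 (13.3%, against 13.9% of all genes). Rps4x, the X-linked member of the small subunit, had 40.4, 35.6 and 39.1 CPM in WT and 41.3, 50.4 and 49.9 CPM in Nr2e3-/- tumors. The groups did not overlap, with Nr2e3-/- replicate 1 just above the highest WT library (log2 fold change 0.30, SE 0.12, adjusted p = 0.206, edgeR).

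Rps6, which is phosphorylated by the S6 kinases and whose start window is printed above, had 6.72, 4.53 and 6.00 CPM in WT and 8.01, 7.57 and 7.19 CPM in Nr2e3-/- tumors. All Nr2e3-/- libraries were higher, at a log2 fold change of 0.40 (SE 0.19, adjusted p = 0.26, edgeR) and with 157 counts on average. Rps3 had 262, 234 and 257 CPM in WT and 254, 306 and 289.7 CPM in Nr2e3-/- tumors, and its groups overlapped. Rps19, the gene most often mutated in Diamond-Blackfan anemia, had 28.2, 26.3 and 29.6 CPM in WT and 21.98, 30.6 and 30.3 CPM in Nr2e3-/- tumors. Here Nr2e3-/- replicate 1 was the lowest of all libraries and the log2 fold change was -0.02 (SE 0.15, adjusted p = 0.945, edgeR). Sparsely counted genes held the values furthest from 0 in this subunit, and Rps16, with 18.3 counts on average and overlapping groups, had a log2 fold change of 0.56 (SE 0.30). Rps13 and Rps23, with 9.8 and 9.0 counts on average, had log2 fold changes of 0.04 and 0.02 with SE of 0.59 and 0.60.

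**Figure D3:**
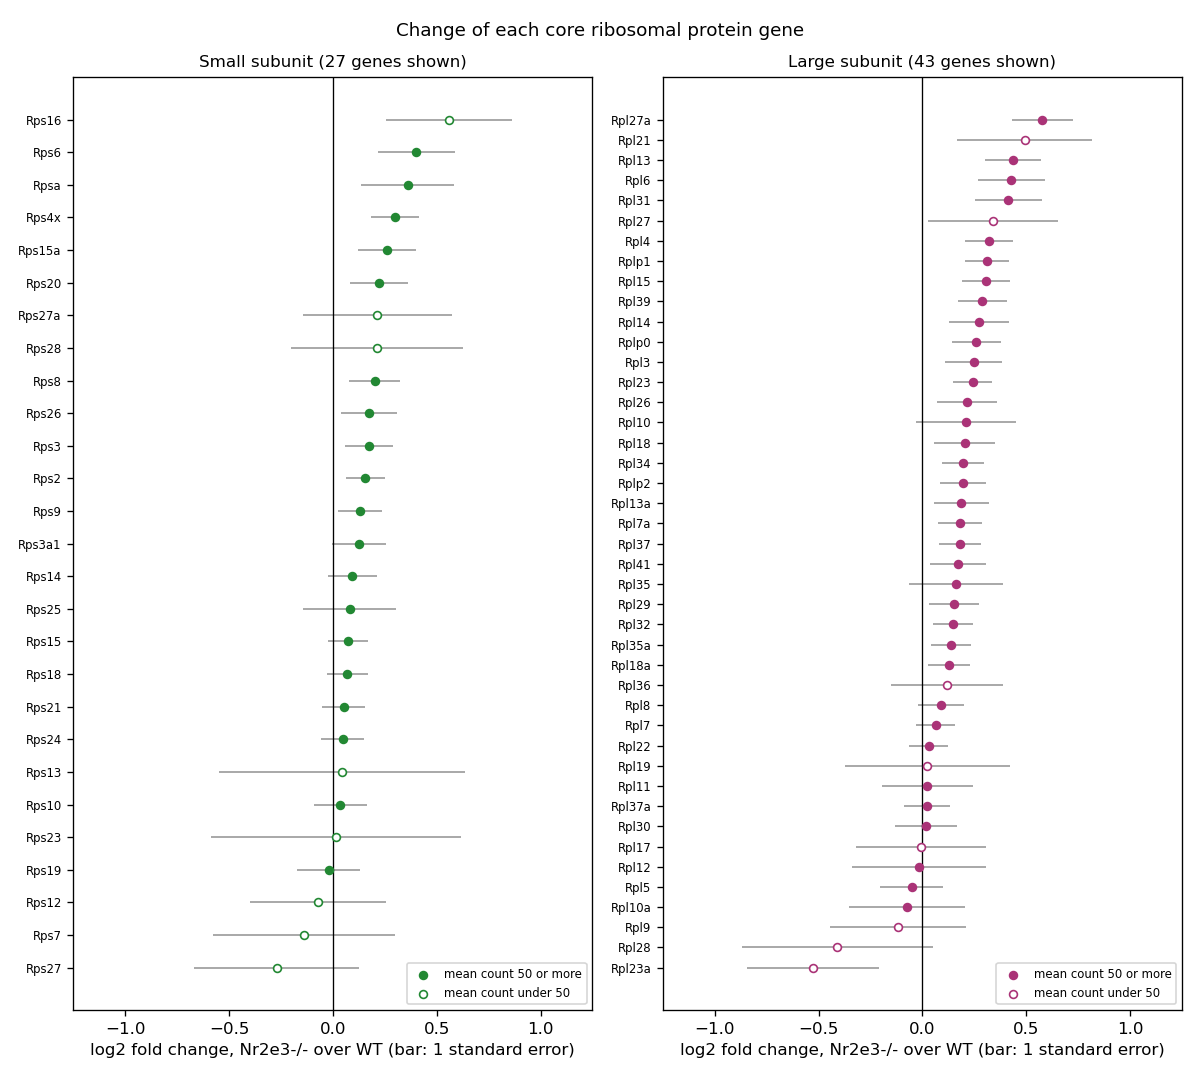
Log2 fold change of Nr2e3-/- over WT with 1 standard error for 27 of the 30 small subunit (left) and the 43 large subunit (right) members tested, ordered by value. Filled points have at least 50 counts on average, and open points, with fewer, carry the widest bars. In the small subunit panel 23 values are positive, and in the large subunit panel 36.

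Among the 43 tested large subunit members the median log2 fold change was 0.18, with 36 positive and 7 negative values. At an unadjusted p under 0.05, 9 were higher (20.9% of those tested, against 11.8% of all genes), and the groups did not overlap upward in 18 (41.9%, against 13.9% of all genes). Rpl27a had 12.6, 10.3 and 10.7 CPM in WT (11.2 ± 1.2, SD) and 14.5, 18.2 and 17.5 CPM in Nr2e3-/- tumors (16.7 ± 1.9, SD). The groups were apart and the log2 fold change was 0.58 (SE 0.15, adjusted p = 0.117, edgeR), the highest of the core members. Rpl13 had 12.5, 12.0 and 13.3 CPM in WT and 15.1, 19.5 and 16.5 CPM in Nr2e3-/- tumors, with groups apart and a log2 fold change of 0.44 (SE 0.14, adjusted p = 0.15, edgeR). These 2 genes have 0% unshared coding windows, with identical windows in 19 and 15 other genes.

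Rpl4 was the most counted member and had 374, 369 and 401 CPM in WT and 428, 517 and 482 CPM in Nr2e3-/- tumors. Its groups did not overlap, and the log2 fold change was 0.32 (SE 0.12, adjusted p = 0.185, edgeR). Rpl6 had 20.01, 17.8 and 19.3 CPM in WT and 20.9, 31.2 and 24.7 CPM in Nr2e3-/- tumors, with replicate 1 just above the WT libraries (log2 fold change 0.43, SE 0.16, adjusted p = 0.195, edgeR). Rpl8, the member with the highest level per kilobase, had 252, 256 and 263 CPM in WT and 247, 277 and 296 CPM in Nr2e3-/- tumors. Nr2e3-/- replicate 1 was the lowest of the 6 libraries and the log2 fold change was 0.09 (SE 0.11). Rpl13a, known also for a part in the interferon response outside the ribosome, had 193, 183 and 196 CPM in WT and 180.8, 243 and 227 CPM in Nr2e3-/- tumors, again with replicate 1 lowest.

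The smallest values among the large subunit members with at least 50 counts were those of Rpl10a (log2 fold change -0.08, SE 0.28), Rpl5 (-0.05, SE 0.15) and Rpl12 (-0.02, SE 0.32), all with overlapping groups. Rpl23a, with 41.0 counts on average, had the lowest value of the subunit, -0.53 (SE 0.32, adjusted p = 0.365, edgeR), with 2.04, 1.35 and 2.50 CPM in WT and 1.72, 1.30 and 1.08 CPM in Nr2e3-/- tumors. Rpl28, with 9.0 counts on average, had a log2 fold change of -0.41 (SE 0.46).

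**Figure D4:**
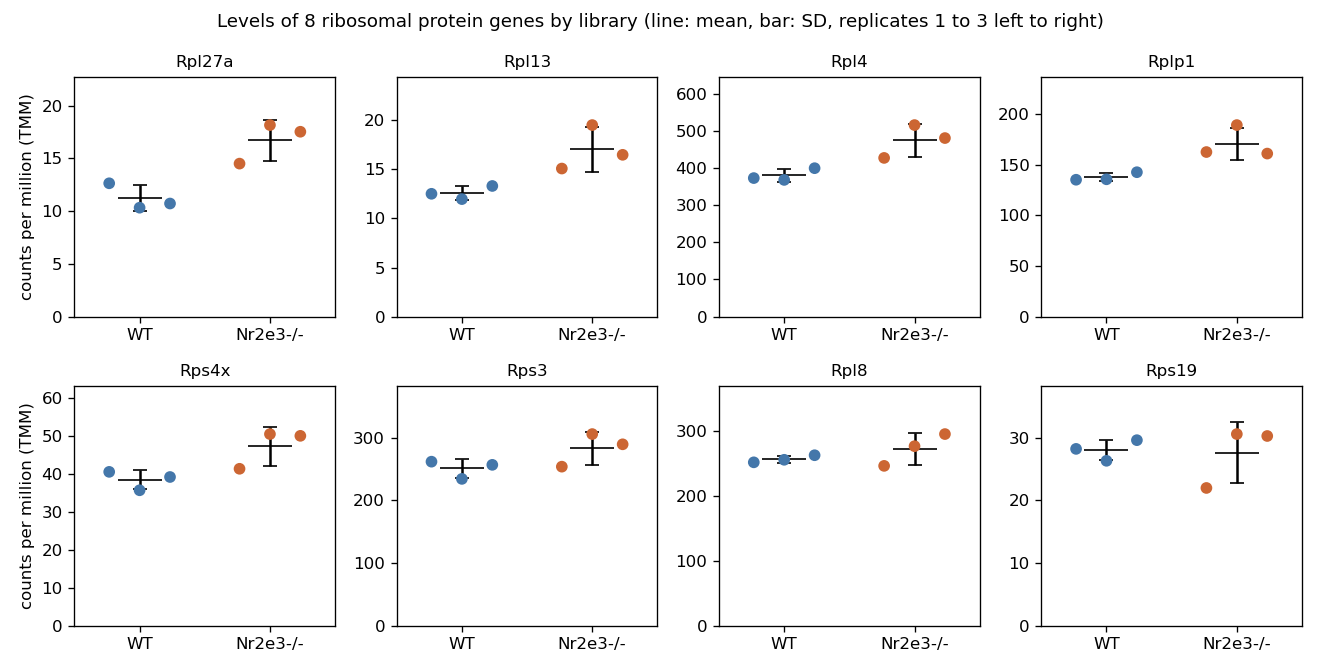
Level of 8 members in each library (points, TMM-normalized CPM, axis from 0; replicates 1 to 3 from left to right in each group) with the mean (line) and SD (bar) of the 3 libraries. The groups do not overlap for Rpl27a, Rpl13, Rpl4, Rplp1 and Rps4x, and overlap for Rps3, Rpl8 and Rps19.

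The P stalk, made of Rplp0 and dimers of Rplp1 and Rplp2, recruits elongation factors to the ribosome. Rplp1 had 135, 136 and 143 CPM in WT and 163, 189 and 161 CPM in Nr2e3-/- tumors, with groups apart (log2 fold change 0.31, SE 0.11, adjusted p = 0.174, edgeR). Rplp0 had 146, 135 and 137 CPM in WT and 147, 185 and 169 CPM in Nr2e3-/- tumors (log2 fold change 0.26, SE 0.12, adjusted p = 0.251, edgeR). Rplp2 had 35.4, 38.5 and 38.4 CPM in WT and 38.7, 42.7 and 47.2 CPM in Nr2e3-/- tumors (log2 fold change 0.20, SE 0.11, adjusted p = 0.335, edgeR). In all 3 stalk genes every Nr2e3-/- library was above every WT library, as in 30.4% of members and 13.9% of all genes tested. For Rplp0 (147.1 against 145.6 CPM) and Rplp2 (38.66 against 38.54 CPM), Nr2e3-/- replicate 1 lay just above the highest WT library. None of the 3 passed the test.

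Several ribosomal proteins bind and inhibit Mdm2, the ligase that degrades p53, when they are free of the ribosome. Rpl5 and Rpl11 do so in a particle with the small RNA of the large subunit. Rpl5 had 12.3, 13.2 and 13.3 CPM in WT and 10.1, 13.4 and 13.9 CPM in Nr2e3-/- tumors, and Rpl11 had 2.50, 2.03 and 2.19 CPM in WT and 2.32, 1.93 and 2.596 CPM in Nr2e3-/- tumors (log2 fold change 0.02, SE 0.22). The groups overlapped for both, and both have 0% unshared coding windows.

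Rpl23 differed from this pair, with 52.0, 50.6 and 50.04 CPM in WT and 56.3, 63.2 and 60.9 CPM in Nr2e3-/- tumors, groups apart, and a log2 fold change of 0.24 (SE 0.09, adjusted p = 0.2, edgeR). Rpl26, which also binds the p53 mRNA, had 47.1, 34.2 and 42.0 CPM in WT and 42.6, 50.2 and 50.1 CPM in Nr2e3-/- tumors (log2 fold change 0.22, SE 0.14, adjusted p = 0.409, edgeR). Rps7 had 30.2 counts on average and a log2 fold change of -0.14 (SE 0.44). Of the 8 genes of the Mdm2 and p53 axis that were tested, 0 passed the adjusted threshold with edgeR, 2 with DESeq2 and 2 with limma-voom, the same 2 that were higher at an unadjusted p under 0.05 in edgeR (11.8% of all genes). These were Cdkn1a, the p53-induced inhibitor of the cell cycle (log2 fold change 1.08, SE 0.27, adjusted p = 0.117, edgeR), and Trp53 (0.61, SE 0.18, adjusted p = 0.136, edgeR), both with groups apart. Mdm2 had a log2 fold change of -0.15 (SE 0.12) and its partner Mdm4 -0.19 (SE 0.13).

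The paralogs were counted at levels that often differed from those of their parents. Rps27l, which is itself induced by p53 in many cells, had 83.4, 90.4 and 89.6 CPM in WT and 89.8, 81.3 and 95.0 CPM in Nr2e3-/- tumors (log2 fold change 0.01, SE 0.10). Its parent Rps27 had 0.461, 0.947 and 1.18 CPM in WT and 0.596, 0.780 and 0.757 CPM in Nr2e3-/- tumors, and the identical copy Rps27rt had 5.7 counts on average and was not tested. Per kilobase this is 177 CPM per kb for Rps27l and 2.28 for Rps27. Over the coding sequences printed above, 51.7% of the windows of Rps27l were unshared and 0% of those of Rps27 and Rps27rt.

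Rpl7l1, a nucleolar relative of Rpl7, had 60.6, 62.2 and 53.5 CPM in WT and 67.3, 80.7 and 92.2 CPM in Nr2e3-/- tumors. Its groups were apart and its log2 fold change of 0.45 (SE 0.14, adjusted p = 0.151, edgeR) was among the 5 largest of members with at least 50 counts, while Rpl7 had 75.8, 77.1 and 77.8 CPM in WT and 75.1, 84.1 and 82.1 CPM in Nr2e3-/- tumors (0.07, SE 0.09). Rpl22l1, which can take the place of Rpl22, had 9.33, 8.76 and 11.7 CPM in WT and 11.1, 17.6 and 11.3 CPM in Nr2e3-/- tumors, and Nr2e3-/- replicate 2 alone stood above the rest (log2 fold change 0.43, SE 0.22, adjusted p = 0.297, edgeR). Rpl22 had 78.5, 81.8 and 85.8 CPM in WT and 83.0, 88.1 and 80.2 CPM in Nr2e3-/- tumors (0.03, SE 0.10).

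Rpl36al had 18.2, 17.6 and 18.2 CPM in WT and 20.5, 19.9 and 24.6 CPM in Nr2e3-/- tumors, with groups apart (log2 fold change 0.27, SE 0.12, adjusted p = 0.257, edgeR), and its parent Rpl36a had 6.8 counts on average and was not tested. Rps4l varied most, with 4.76, 11.3 and 10.1 CPM in WT and 7.81, 9.99 and 24.9 CPM in Nr2e3-/- tumors, so that its log2 fold change of 0.71, the largest of all members, rested on replicate 3 and had a SE of 0.49 (adjusted p = 0.424, edgeR). The transcript annotation used gives Rps4l 0 coding bases, so it had no coding windows to compare. Rpl3 had a log2 fold change of 0.25 (SE 0.14), Rpl39 of 0.29 (SE 0.12) and Rpl10 of 0.21 (SE 0.24). Their tissue-restricted relatives, Rpl3l of muscle and Rpl39l and Rpl10l of testis, had 1.8, 0.2 and 0.2 counts on average and were not tested. Rps19bp1 had 8.87 to 13.4 CPM and a log2 fold change of 0.11 (SE 0.18). The remaining members left out by the filter were Rps29, Rpl38 and Rpl24, with 5.0, 5.2 and 9.5 counts on average.

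**Figure D5:**
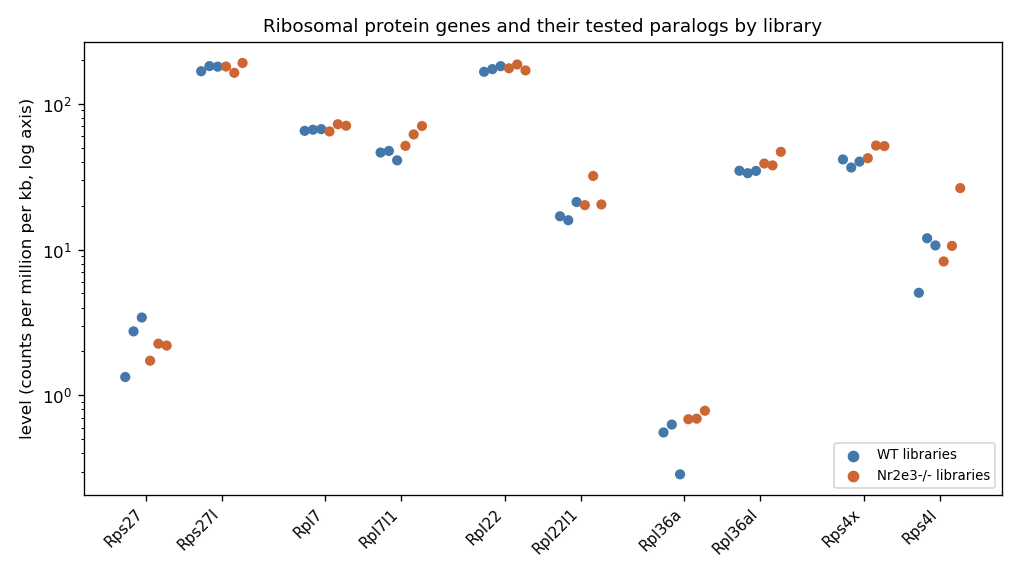
Level (CPM per kb of transcript, log axis) of 5 ribosomal protein genes and their tested paralogs in each library (blue WT, orange Nr2e3-/-; replicates 1 to 3 from left to right in each group). Rps27l lies far above Rps27 and Rpl36al far above Rpl36a, while Rpl22 lies above Rpl22l1.

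To see whether single members departed from the rest, each was also tested against the members' own sum in the same library in place of all genes. At an adjusted p under 0.05, 0 of 79 members departed, with edgeR or with DESeq2, and 15 did at an unadjusted p under 0.05, 7 upward and 8 downward. Each member is part of that sum, so upward and downward departures offset each other by design and their balance is no result. The lowest adjusted p, 0.169 in edgeR, was shared by Rpl27a (log2 fold change against the sum 0.38, SE 0.12), Rpl7l1 (0.25, SE 0.08) and Rpl4 (0.13, SE 0.04). Rps19 (-0.22, SE 0.08), Rpl8 (-0.11, SE 0.04) and Rpl7 (-0.13, SE 0.05) were on the other side, and the groups did not overlap in these 6 genes. Without WT replicate 2, 2 members passed the adjusted threshold, Rps4l and Rpl7l1.

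The ratio between genotypes was also taken by the share of unshared sequence. The median log2 fold change was 0.04 over the 25 tested core members with 0% unshared windows, 0.16 over the 28 above 0% and up to 20%, 0.20 over the 9 above 20% and up to 50%, and 0.15 over the 11 above 50%. The 11 members above 50% all had positive values, between 0.03 and 0.32, with a median SE of 0.10. In the group at 0%, 16 values were positive and 9 negative, and the median standard error was 0.32.

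Genes that act with the members gave the following counts. Of 17 translation factors and other transcripts of the TOP class, 0 passed the adjusted threshold with edgeR, DESeq2 or limma-voom, 3 were higher at an unadjusted p under 0.05 (17.6%, against 11.8% of all genes), the groups did not overlap upward in 9 (52.9%, against 13.9% of all genes), and the median log2 fold change was 0.21. Eef2, which moves the ribosome along the mRNA, had 1237, 1252 and 1294 CPM in WT and 1348, 1532 and 1505 CPM in Nr2e3-/- tumors (log2 fold change 0.21, SE 0.12, adjusted p = 0.328, edgeR). The largest values were those of Eif2s3x (0.47, SE 0.19) and Eef1g (0.35, SE 0.13), and the lowest those of Hnrnpa1 (-0.27, SE 0.16) and Eif4b (-0.09, SE 0.12). Gnb2l1, a ribosomal protein outside the rule, had 289.5, 243 and 278 CPM in WT and 285, 359 and 342 CPM in Nr2e3-/- tumors (log2 fold change 0.28, SE 0.13). Fau, also outside the rule, had 0.609 to 0.919 CPM and a log2 fold change of 0.29 (SE 0.28), and neither gene passed an unadjusted p under 0.05 or the adjusted threshold of any tool.

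Of 17 genes of mTORC1 and the control of TOP mRNAs, 0 passed the adjusted threshold with edgeR, and 5 were higher and 2 lower at an unadjusted p under 0.05, where 11.8% of all genes were higher and 9.72% lower, with a median log2 fold change of 0.01. DESeq2 called 2 higher and 0 lower at its adjusted threshold, against 3.59% and 2.24% of all genes, and limma-voom 4 higher and 1 lower, against 9.48% and 7.91%. Eif4e, the cap-binding factor, had 25.1, 20.9 and 23.4 CPM in WT and 29.6, 48.9 and 43.6 CPM in Nr2e3-/- tumors (log2 fold change 0.82, SE 0.19, adjusted p = 0.109, edgeR). Ddit4, an inhibitor of mTORC1, followed (0.79, SE 0.27). Mtor had 80.03, 80.5 and 87.5 CPM in WT and 68.4, 64.5 and 64.4 CPM in Nr2e3-/- tumors, with groups apart in the other direction (-0.33, SE 0.09, adjusted p = 0.134, edgeR), and Tsc1, which restrains mTORC1, had -0.41 (SE 0.15). Larp1 had a log2 fold change of -0.02 (SE 0.09).

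Of 10 chaperones and importers of ribosomal proteins, 0 passed the adjusted threshold with edgeR, 2 were called higher by DESeq2 (3.59% of all genes) and 5 by limma-voom (9.48% of all genes), 5 were higher at an unadjusted p under 0.05 (11.8% of all genes), and the median log2 fold change was 0.36. Ltv1, an assembly factor of the small subunit, had 18.4, 20.1 and 16.0 CPM in WT and 23.0, 36.1 and 40.9 CPM in Nr2e3-/- tumors (log2 fold change 0.88, SE 0.22, adjusted p = 0.117, edgeR). Grwd1, the chaperone of Rpl3, had a log2 fold change of 1.004 (SE 0.37, adjusted p = 0.185, edgeR). Its levels were 11.2, 10.4 and 9.47 CPM in WT and 9.27, 25.4 and 27.3 CPM in Nr2e3-/- tumors. Its groups overlapped, with Nr2e3-/- replicate 1 below every WT library. Pdcd2l (-0.28, SE 0.14) and Pdcd2 (-0.07, SE 0.14) were lowest. Of 8 snoRNA host genes, 1 was higher at an unadjusted p under 0.05 (12.5%, near the share of all genes), and the median was 0.22. Snhg3 had the largest value (1.09, SE 0.30, adjusted p = 0.132, edgeR), ahead of Snhg5 (0.58, SE 0.31). Of 10 transcription factors known from ribosomal protein promoters, 2 were higher at an unadjusted p under 0.05 (11.8% of all genes), and the median was 0.03. Gabpb1 (0.44, SE 0.18) and Sp1 (0.33, SE 0.11) were highest, and Mycn (-0.99, SE 0.84) and Myc (-0.53, SE 0.58) lowest. From these last lists, edgeR called 0 genes at the adjusted threshold, DESeq2 called 1 host gene and 0 transcription factors, and limma-voom called 1 and 2.

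The share of members with groups apart was also measured in other large complexes. Of 75 tested mitochondrial ribosomal protein genes, 23 (30.7%) had all Nr2e3-/- libraries above all WT libraries and 13 (17.3%) were higher at an unadjusted p under 0.05, with a median log2 fold change of 0.12. Of 39 tested proteasome subunits, these counts were 14 (35.9%) and 5 (12.8%), with a median of 0.13. The cytosolic members, at 30.4% and 15.2% with a median of 0.17, stood near both, and the differences between these groups of genes were not tested.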

How the data were processed

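Single-end RNA-seq of 3 WT and 3 Nr2e3-/- tumors was analysed. The authors aligned reads to mm10 (GRCm38) with TopHat, and counted reads per gene with featureCounts, and the deposited values used here are these raw counts, without normalization. The submitters' processing notes also name Bowtie2 2.4.5 and SAMtools 1.14. Read length and the treatment of multiply aligned reads are not given in the sources used here. The deposited normalized table and the authors' comparison table (log2 fold changes with p-values from DESeq) were not used. Dose, age and time point come from the study's methods, and groups come from the labels.

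Counts were filtered (filterByExpr, minimum count 10, minimum total count 15), scaled by TMM factors and tested with edgeR 4.0.16 (quasi-likelihood F test, two-sided, Benjamini-Hochberg adjusted p under 0.05 over 13572 genes) in R 4.3.3. Standard errors were taken from the F statistic. The share of counts was compared by an exact permutation test. Transcript lengths and coding sequences came from GENCODE M21 (22803 symbols direct, 878 by an older symbol, 382 not matched), with the shortest principal protein-coding transcript of each gene (3706 bases for Rps20). Coding windows were compared with transcripts of other genes with bwa 0.7.19, for identical copies and for copies with up to 2 mismatches. Promoters came from RefSeq (GRCm38.p6). The scripts were tested on simulated data. Figures used Python 3.11.15 and matplotlib 3.10.9.

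Named genes were, by rule, members with an adjusted p under 0.05, the 5 largest and 5 smallest log2 fold changes among members with at least 50 counts, the 5 highest and 5 lowest core members per kb, Mdm2-binding and P stalk proteins, Rps6, the paralogs with their parents, and members departing from their own sum. Of each list of other genes, the 2 largest changes in each direction were taken. Genes named beyond the rule, among them Rps3, Rps4x, Rpl6, Rpl23a, Eef1a1, Eef2, Larp1 and Gnb2l1, were chosen after their values were seen. The members, rule, lists and tests were chosen with earlier results of these data known. Alternatives were RLE, upper quartile or no normalization factors, DESeq2 1.42.0, limma-voom (limma 3.58.1) with quality weights, other count filters, the replicate number as a block, each library left out, a correction for length and GC content, and core members only. An alternative with only those members that have at least 50% unshared coding windows was added after the data were seen. The p-values set the difference between the groups against the spread between these tumors. The values of some members and listed genes, which entered the counts and medians, are not reported here.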

Additional observations from a re-analysis of the deposited data

How the results depend on the processing

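No alternative called a member lower, at an adjusted or unadjusted p under 0.05, and the median log2 fold change of the members stayed positive in all. Against 0 members higher at an adjusted p under 0.05 with edgeR, DESeq2 gave 1, limma-voom 5 and leaving out single libraries 0 to 8, with 8 without Nr2e3-/- replicate 1. At an unadjusted p, 12 members were higher in the first fit, against 11.8% of all genes. Upper quartile normalization gave 3 (all genes 8.1%), library totals 3 (7.0%), the replicate block 3 (9.0%) and limma-voom 24 (18.8%). Leaving out single libraries gave 2 to 28, the 28 without Nr2e3-/- replicate 1 (19.9%). Without any other library, 6.7% to 9.5% of all genes were higher. In the first fit 24 members had groups apart upward, where 13.9% of all genes had them. Upper quartile normalization gave 14 (all genes 9.6%) and library totals 7 (7.5%). The length and GC correction gave 14 (17.7% of the members, below the 19.2% of all genes). Leaving out single libraries gave 24 to 52. The 52 came without Nr2e3-/- replicate 1, where 65.0% of the members and 28.01% of all genes had groups apart upward, and leaving out any other library gave 15.8% to 19.9% of all genes. Downward, against 0, DESeq2 size factors, the filter of at least 1 count and the length and GC correction gave 1 each, and leaving out single libraries 1 to 2. With library totals only, the median of all genes moved from 0.01 to -0.10, and the medians were 0.058 for the members, 0.018 for the small and 0.069 for the large subunit, still above that of all genes. Leaving out single libraries gave medians of 0.12 to 0.25 for the members, 0.07 to 0.24 for the small and 0.13 to 0.23 for the large subunit. Of the 14 tested members with at least 50% unshared coding windows, 3 were higher at an unadjusted p (11.8% of all genes). In that set 4 had groups apart upward (13.9% of all genes), and the median was 0.14. Members departing from their own sum numbered 0 to 2 when libraries were left out. The difference in the share of counts ran from 0.011 to 0.035 percentage points, and outside the 10 most counted genes it was 0.014 (exact permutation p = 0.5). The table lists 0 mitochondrial genome genes, so that denominator gave no value. The labels name no pairs of tumors, so the block value above is no paired test. Same-numbered libraries correlated at -0.08, 0.22 and 0.02, which with 3 libraries per group cannot decide whether the numbers pair tumors. Of 519 values of 35 named members under alternatives, 45 had another sign than in the first fit. They belonged to 13 members, whose log2 fold changes in the first fit were at most 0.271 in size. The causes of these shifts were not tested. The members that the filter left out were not tested at this depth.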

Other observations

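Rps19-ps3, a pseudogene row outside the rule, had 16, 15 and 12 counts in WT and 1, 6 and 2 counts in Nr2e3-/- tumors (log2 fold change -1.79, standard error 0.48, adjusted p = 0.127, edgeR), while Rps19 had a log2 fold change of -0.02. It was chosen after its values were seen.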
